A study of Mus musculus with 12 samples.

Results

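The Iroquois genes Irx1 to Irx6, the Meis genes Meis1 and Meis2, and Pbx3 were examined for BRG1-binding regions in wild-type cardiac precursors (CPs). These 9 genes, of 22380 protein-coding genes in the annotation, were taken by name from the TALE class of homeobox genes. They were chosen with earlier results of these data known. For each gene, the distinct regions at its promoters (within 1 kb either side of an annotated transcription start site, TSS), in its body and within 100 kb of it were collected, and the Iroquois clusters were searched from end to end. Of 3473 distinct BRG1 regions, 7 lay within 100 kb of the 9 genes, and 3 more lay inside the clusters but farther from any Iroquois gene.

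BRG1 is the ATPase of BAF complexes, which slide and evict nucleosomes. The CPs were wild type and of strain W4/129S6, at passage 15 to 20, and were derived from mouse embryonic stem cells as embryoid bodies with VEGF, Activin and BMP4 and then as monolayers with FGFs. Chromatin was crosslinked with disuccinimidyl glutarate and formaldehyde, cut with MNase to mono- and dinucleosomes and then sonicated. It was immunoprecipitated with an antibody against BRG1, and 2 BRG1 ChIP libraries and 1 input library stand behind a single list of regions. Of 12 libraries, the other 9 came from cardiac myocytes (CMs) or from BAF170 KO or BAF60c KO cells and were left aside. The list was assigned to CPs by its label. Its number of rows is the number of sites that the text of the study gives for CPs, while its number of distinct regions is one that the text gives for CMs, and the files do not show what this coincidence means for the cell stage. The list gives positions alone. It has no height and no value per library, so that the depth is unknown, no value below has an error between replicates, no test over samples was possible and the labelled cell type could not be checked against markers. A gene with no listed region may be unbound or below the threshold of the authors, which cannot be told apart here.

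TALE homeodomain proteins carry a loop of 3 extra amino acids in the homeodomain. MEIS and PBX proteins bind DNA together, often with HOX proteins, and shift the sites at which HOX proteins act. Iroquois proteins bind DNA through their own homeodomain and pattern the neural plate, limb and heart. Their genes are arranged in 2 clusters, IrxA with Irx1, Irx2 and Irx4 and IrxB with Irx3, Irx5 and Irx6, which arose by duplication. In the heart, Irx4 is a ventricular gene, Irx3 acts in the ventricular conduction system and Irx5 in the gradient of repolarisation across the ventricular wall, while Meis1 and Meis2 act in heart and outflow tract development and Meis1 also in the cell cycle exit of cardiomyocytes after birth.

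Of the 9 genes, 3 had a region at a promoter (Irx2, Meis1 and Pbx3), against 11.9% of all protein-coding genes. A further 3 had regions away from promoters only (Irx3, Irx5 and Meis2), and Irx1, Irx4 and Irx6 had no region within 100 kb. The sequences of the regions are shown first, because their base composition and the words they hold differ between the genes. Each is given 5′ to 3′ on the plus strand of mm9, limited to the central 300 bp of wider regions. Capitals mark a searched word on either strand (TGACAG of MEIS proteins, which reads CTGTCA on the other strand, AGATAA of GATA factors, which reads TTATCT, TGATTTAT of PBX with HOX, and ACATGT of Iroquois proteins). Of the promoter regions, the centre of the wide Meis1 region and the part of the Irx2 region before the most upstream Irx2 TSS are shown. Neither stretch holds a searched word.
Meis1 promoter region, centre, chr11:18919636-18919935: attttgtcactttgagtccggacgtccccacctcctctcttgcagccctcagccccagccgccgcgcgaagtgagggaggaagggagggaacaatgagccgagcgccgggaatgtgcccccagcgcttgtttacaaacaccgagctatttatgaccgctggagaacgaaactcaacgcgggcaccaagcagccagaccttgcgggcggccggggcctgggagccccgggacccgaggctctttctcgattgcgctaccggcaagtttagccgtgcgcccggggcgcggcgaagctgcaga
Irx2 promoter region, upstream part, chr13:72765946-72766244: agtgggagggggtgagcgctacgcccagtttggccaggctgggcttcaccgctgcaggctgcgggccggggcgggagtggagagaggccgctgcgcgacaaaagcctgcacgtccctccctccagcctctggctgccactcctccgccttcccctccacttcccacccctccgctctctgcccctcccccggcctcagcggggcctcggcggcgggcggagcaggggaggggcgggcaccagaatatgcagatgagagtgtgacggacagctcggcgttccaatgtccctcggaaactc

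Of the regions away from promoters, those of Meis2, Irx3 and Irx5 are shown whole or by their centre, to set the CpG-poor Irx3 region beside the CpG-rich Irx5 region and the pair that flanks Meis2.
Meis2, past the 3′ end, centre, chr2:115685926-115686225: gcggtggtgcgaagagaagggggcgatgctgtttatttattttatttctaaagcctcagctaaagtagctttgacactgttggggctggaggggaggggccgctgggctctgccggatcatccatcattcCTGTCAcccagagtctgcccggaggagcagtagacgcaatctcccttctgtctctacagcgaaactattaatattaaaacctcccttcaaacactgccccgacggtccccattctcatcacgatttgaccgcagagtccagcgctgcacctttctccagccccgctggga
Meis2, upstream, chr2:115901786-115901965: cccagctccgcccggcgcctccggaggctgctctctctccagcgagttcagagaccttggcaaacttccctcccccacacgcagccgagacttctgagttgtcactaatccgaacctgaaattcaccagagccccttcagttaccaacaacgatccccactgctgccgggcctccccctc
Irx3, past the 3′ end, centre, chr8:94239476-94239775: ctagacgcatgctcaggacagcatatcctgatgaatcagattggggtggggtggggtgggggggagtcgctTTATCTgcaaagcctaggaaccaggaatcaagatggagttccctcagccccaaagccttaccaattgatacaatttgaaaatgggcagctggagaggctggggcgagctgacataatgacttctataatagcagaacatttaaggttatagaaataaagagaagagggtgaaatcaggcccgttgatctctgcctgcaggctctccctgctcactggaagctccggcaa
Irx5, past the 3′ end, centre, chr8:94984326-94984625: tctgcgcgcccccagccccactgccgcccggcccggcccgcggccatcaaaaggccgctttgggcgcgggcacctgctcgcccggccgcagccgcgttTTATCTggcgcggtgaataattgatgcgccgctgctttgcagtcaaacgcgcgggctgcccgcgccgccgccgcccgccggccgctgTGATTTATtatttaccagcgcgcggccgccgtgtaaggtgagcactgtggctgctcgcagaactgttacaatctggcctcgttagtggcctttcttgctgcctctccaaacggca

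The short regions deep in the clusters are shown whole, because each has a searched word near its middle. AGATAA was in 25.4% of windows away from promoters and in 14.9% of the windows 5 kb from them. For ACATGT these shares were 4.74 and 9.70%. The 1080 bp region upstream of Irx2, with no searched word in its central window, is not shown.
IrxA cluster, between Irx1 and Irx2, chr13:72508526-72508605: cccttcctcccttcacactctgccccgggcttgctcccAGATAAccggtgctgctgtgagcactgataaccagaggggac
IrxB cluster, between Irx3 and Irx5, chr8:94511926-94512125: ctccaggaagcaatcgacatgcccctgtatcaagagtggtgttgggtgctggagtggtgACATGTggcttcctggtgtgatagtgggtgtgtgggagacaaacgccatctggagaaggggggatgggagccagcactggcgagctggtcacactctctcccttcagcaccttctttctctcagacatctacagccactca

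**Figure D1:**
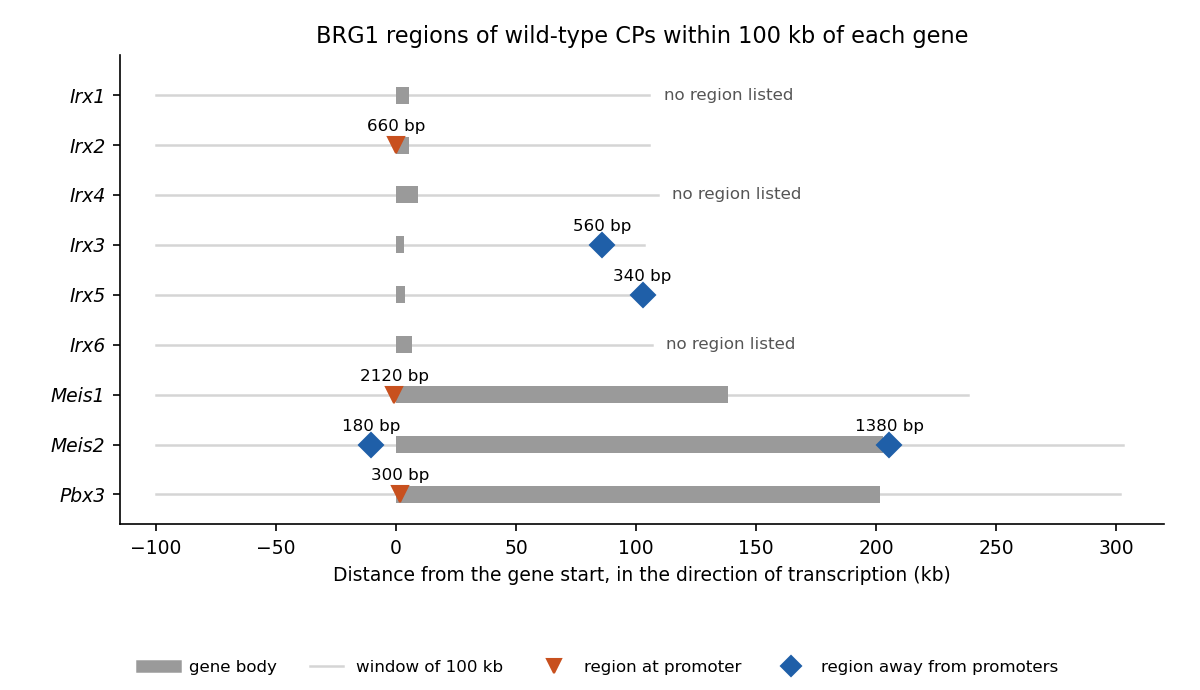
BRG1 regions within 100 kb of each gene, drawn by the distance of their midpoint from the gene start in kb in the direction of transcription, with the width in bp printed at each region. Regions at promoters (triangles) were listed for Irx2, Meis1 and Pbx3, regions away from promoters (diamonds) for Irx3, Irx5 and Meis2, and none for Irx1, Irx4 and Irx6.

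Meis1 (ENSMUSG00000020160), which encodes a partner of PBX and HOX proteins, had the widest region of the set. The gene occupies chr11:18780433-18918961 on the minus strand and spans 139 kb. The region, chr11:18918726-18920845, was 2120 bp wide and was listed on 4 rows of the table. It reached from 1884 bp upstream to 235 bp downstream of the gene start, with its midpoint 824 bp upstream. Only 236 bp of it lay in an exon, all annotated as UTR, so that most of the width was upstream of the transcribed sequence. Of the 4 annotated TSSs of Meis1, 3 had the region within 1 kb, and 2 of these lay inside it. The remaining one, of the internal start Meis1-006, was 6.72 kb away from it. Regions of 2120 bp or more numbered 31 in the whole list, and 0.974% of the 2566 regions at promoters were wider. The number of rows also stood high, since 166 regions were on 4 or more rows and 793 on more than 1. What a repeated row stands for was not given in the sources used here.

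Irx2 (ENSMUSG00000001504) was the one Iroquois gene with a region at a promoter. It occupies chr13:72766245-72771644 on the plus strand and is 5.40 kb long. The region, chr13:72765946-72766605, was 660 bp wide, was listed on 2 rows and spanned the gene start, from 299 bp upstream to 360 bp downstream. Its midpoint was 7 bp from the TSS of Irx2-001. Of its bases, 361 lay in an exon, of which 265 bp were UTR and 96 bp coding. Of 7 annotated TSSs of the gene, 4 had the region within 1 kb, and 3 lay inside it. Regions at promoters that were wider made up 28.1% of the class, whose median width was 420 bp.

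Pbx3 (ENSMUSG00000038718), which encodes a PBX protein and occupies chr2:34026977-34228660 on the minus strand, had a region of 300 bp on 1 row, chr2:34226686-34226985. This region did not reach the most upstream start. It began 1675 bp inside the gene and was placed at a promoter by the internal starts, since it held the TSS of Pbx3-009 with its midpoint 63 bp away and lay within 1 kb of 6 of 8 annotated TSSs. All 300 bp lay in UTR sequence of an exon of Pbx3-008, for which reason no sequence is given. The protein-coding starts Pbx3-001 and Pbx3-002 were 0.571 and 0.573 kb from it. Among regions at promoters, 62.9% were wider. The 3 promoter regions thus stood at the wide end, above the median and below the median of their class.

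Meis2 (ENSMUSG00000027210), the closest relative of Meis1, had 2 regions within 100 kb and none at any of its 15 annotated TSSs. The gene occupies chr2:115688800-115891575 on the minus strand and spans 203 kb. The wider region, chr2:115685386-115686765, was 1380 bp wide and on 2 rows, overlapped no annotated gene and lay 2.04 kb past the 3′ end of Meis2, 206 kb from the gene start and 12.6 kb from the nearest Meis2 TSS, that of Meis2-003. Of the 907 regions away from promoters, 1.43% were wider. The narrower one, chr2:115901786-115901965, was 180 bp wide and on 1 row, and lay 10.3 kb upstream of the Meis2 start. It lay inside the gene of the long non-coding RNA G630016G05Rik but outside its exons, with the TSS of that RNA 8.17 kb away. Of regions away from promoters, 51.5% were wider than this narrower region. The regions of Meis2 therefore bracketed the gene without touching it, whereas the region of Meis1 lay over its start.

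Irx3 (ENSMUSG00000031734) and Irx5 (ENSMUSG00000031737) each had 1 region near the edge of the 100 kb window. Irx3 occupies chr8:94322428-94325553 on the minus strand, and its region, chr8:94239346-94239905, was 560 bp wide and lay 82.5 kb past the 3′ end of the gene. Irx5 occupies chr8:94881695-94885351 on the plus strand, and its region, chr8:94984306-94984645, was 340 bp wide and lay 99.0 kb past the 3′ end. Each was on 1 row and overlapped no annotated gene. For the Irx3 region, the nearest TSS of any gene was that of the lincRNA D230002A01Rik, at 84.7 kb, with that of Irx3 at 85.9 kb. For the Irx5 region, it was that of Irx5, at 103 kb. The Irx5 region would be outside a window measured from the TSS, which left 6 regions in place of 7.

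For Irx1 (ENSMUSG00000060969, chr13:72095680-72101171, minus strand), Irx4 (ENSMUSG00000021604, chr13:73397945-73407068, plus strand) and Irx6 (ENSMUSG00000031738, chr8:95198188-95204855, plus strand), the nearest region was 407, 631 and 214 kb away. The region nearest to Irx4 was that of the Irx2 promoter, and the region nearest to Irx6 was the one past Irx5. The distance to the nearest region had a median of 82.5 kb across the 9 genes and of 156 kb over all protein-coding genes, with quartiles at 37.3 and 519 kb. Irx4 was thus farther from a region than 3 in 4 protein-coding genes, while Irx1 and Irx6 were between the median and the upper quartile. Among protein-coding genes without another protein-coding TSS within 100 kb, to which Irx1 belongs, the median distance was 372 kb. Of words of 75 bp, the read length, 100% occurred once in mm9 at the promoters of each Iroquois gene and of Meis1, 97.7% at those of Meis2 and 99.5% at those of Pbx3. The part of mappability in what was listed was not tested.

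**Figure D2:**
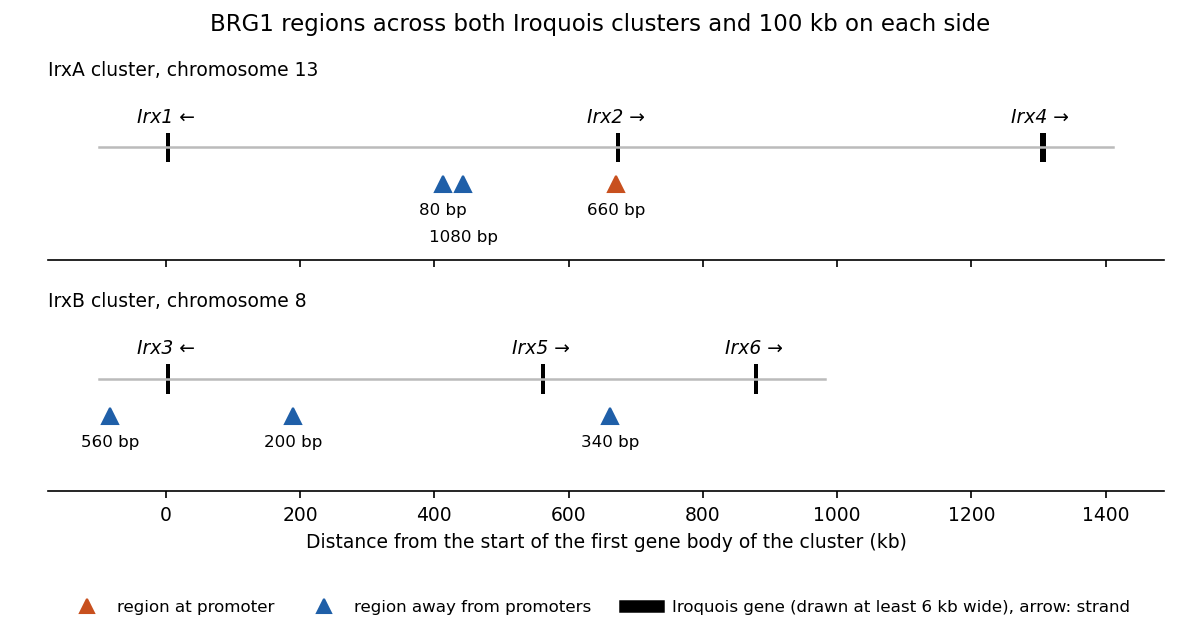
BRG1 regions (triangles, with their width in bp) across the IrxA and IrxB clusters and 100 kb on each side, against the distance in kb from the start of the first gene body of each cluster. Each cluster held 3 regions, of which the only one at a promoter was the 660 bp region of Irx2.

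The clusters were next read as whole loci. IrxA spans 1311 kb from Irx1 to Irx4 on chromosome 13, and IrxB 882 kb from Irx3 to Irx6 on chromosome 8. With 100 kb on each side, each held 3 regions, or 1.98 per Mb in IrxA and 2.77 per Mb in IrxB, against 1.40 per Mb over the autosomes. With 3 regions in each, these densities rest on very few positions. In IrxA, the Irx2 promoter region was joined by 2 regions in the interval between Irx1 and Irx2, at 258 kb upstream of Irx2 (chr13:72508526-72508605, 80 bp) and 227 kb upstream (chr13:72538326-72539405, 1080 bp). The latter was among the wide ones of its class, since 4.63% of regions away from promoters were wider, although it was on 1 row. For both regions the nearest TSS of any gene was that of Rpl9-ps4, at 84.2 kb from the former and 53.9 kb from the latter. No region was listed in the 631 kb between the Irx2 promoter region and Irx4. In IrxB, a region of 200 bp (chr8:94511926-94512125) lay 186 kb upstream of Irx3, between Irx3 and Irx5. The nearest TSS of any gene to it was that of U6, at 51.8 kb. The regions of Irx3 and Irx5 described above lay outside and inside the cluster, respectively. No region was listed at 4933436C20Rik, which lies upstream of Irx5 on the opposite strand and is protein-coding in the annotation used. None was listed at the lincRNA D230002A01Rik beside Irx3 either. The IrxA and IrxB genes are paired by descent as Irx1 with Irx3, Irx2 with Irx5, and Irx4 with Irx6. The members of the first 2 pairs differed in what was listed near them (no region against a region 82.5 kb away, and a promoter region against a region 99.0 kb away), and neither member of the last pair had a region within 100 kb.

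**Figure D3:**
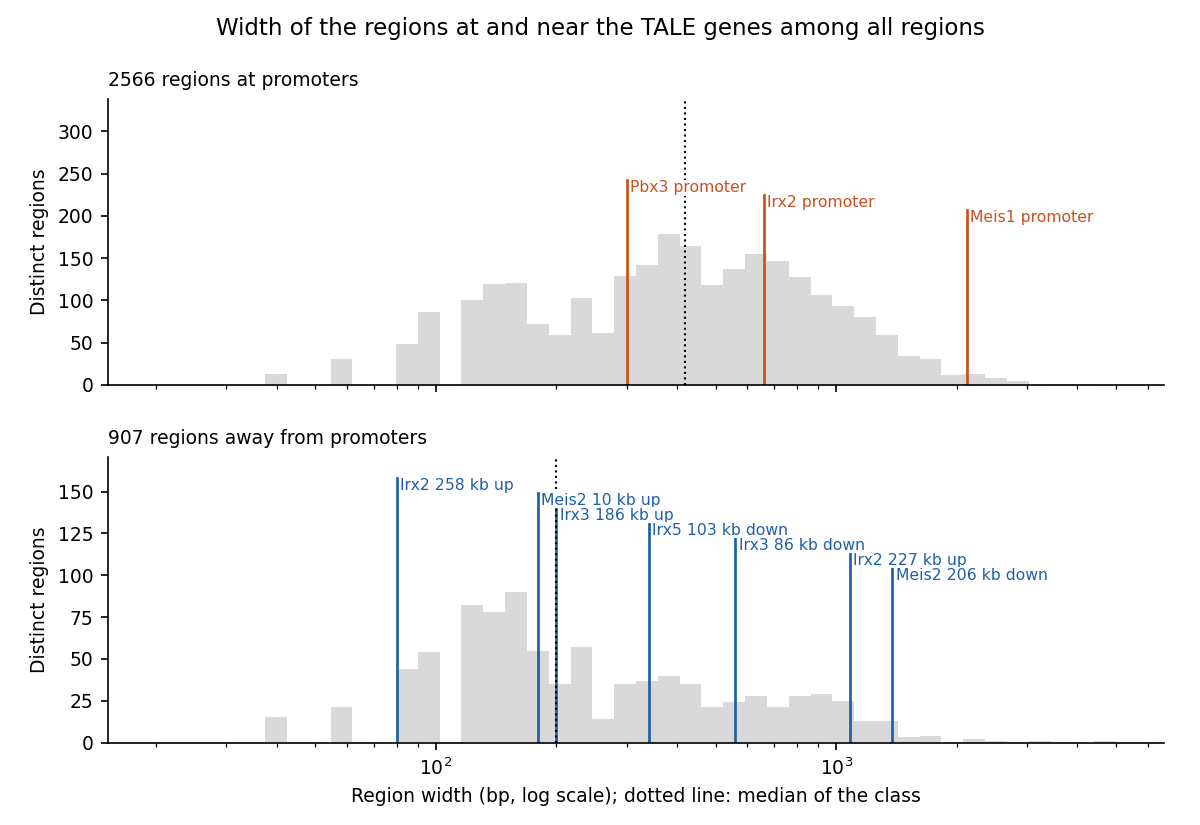
Distribution of the width of distinct BRG1 regions in bp on a log axis, for 2566 regions at promoters and 907 regions away from promoters, with lines for the regions of the TALE genes and a dotted line at the median of each class (420 and 200 bp). The Meis1 promoter region at 2120 bp and the region past Meis2 at 1380 bp stand in the upper tails, and the IrxA region of 80 bp in the lower one.

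Counts over the genes were set beside those of all protein-coding genes. A region within 100 kb was present for 6 of 9 genes, and for 40.3% of protein-coding genes. Of the genes considered here, 1 (Meis2) had 2 or more regions within 100 kb, and 13.6% of protein-coding genes did. A region in the gene body was present for 3 of 9, those with a promoter region, and for 12.3% of protein-coding genes. Gene length and spacing differ within the set, and the background was therefore taken again among genes of like length or spacing. Meis1, Meis2 and Pbx3 span more than 100 kb each, and 2 of these 3 had a region at a promoter and in the body, against 26.6% at a promoter and 30.2% in the body for the 2401 protein-coding genes of 100 kb or more. Irx1, Irx2, Irx3 and Meis2 have no other protein-coding TSS within 100 kb. Of these 4, 1 had a region at a promoter and 3 had one within 100 kb, and the shares for the 1747 protein-coding genes so isolated were 15.6% and 22.9%. The 9 genes were chosen by name with earlier results of these data known, and the choice may itself have moved their counts. These shares therefore describe the set and carry no test.

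In the 1 kb around the gene start, the 2667 protein-coding genes with a promoter region had a median of 64.2% G and C (quartiles 59.6 and 68.6) and the 19683 without had 53.6% (quartiles 46.3 and 59.5). All 6 Iroquois genes had CpG-rich starts, defined as at least 60% G and C and a ratio of observed to expected CpG of at least 0.6. Irx2 stood highest, at 73.8% G and C and a ratio of 0.905, followed by Irx1 at 70.4% and 0.897, Irx5 at 68.6% and 0.847, Irx4 at 66.2% and 0.816, Irx3 at 66.0% and 0.873, and Irx6 at 64.6% and 0.618. Of these 6, 1 had a region at a promoter, while 31.8% of the 5950 protein-coding genes with CpG-rich starts did. The starts of Meis1, Meis2 and Pbx3 were not CpG-rich by this definition. Meis1 had 50.2% G and C and a ratio of 0.651, Meis2 56.3% and 0.691, and Pbx3 59.8% and 0.661, and 2 of these 3 had a region. The value of Pbx3 belongs to its most upstream start, which its region did not reach, since the region lay at internal starts and had 70.3% G and C itself.

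**Figure D4:**
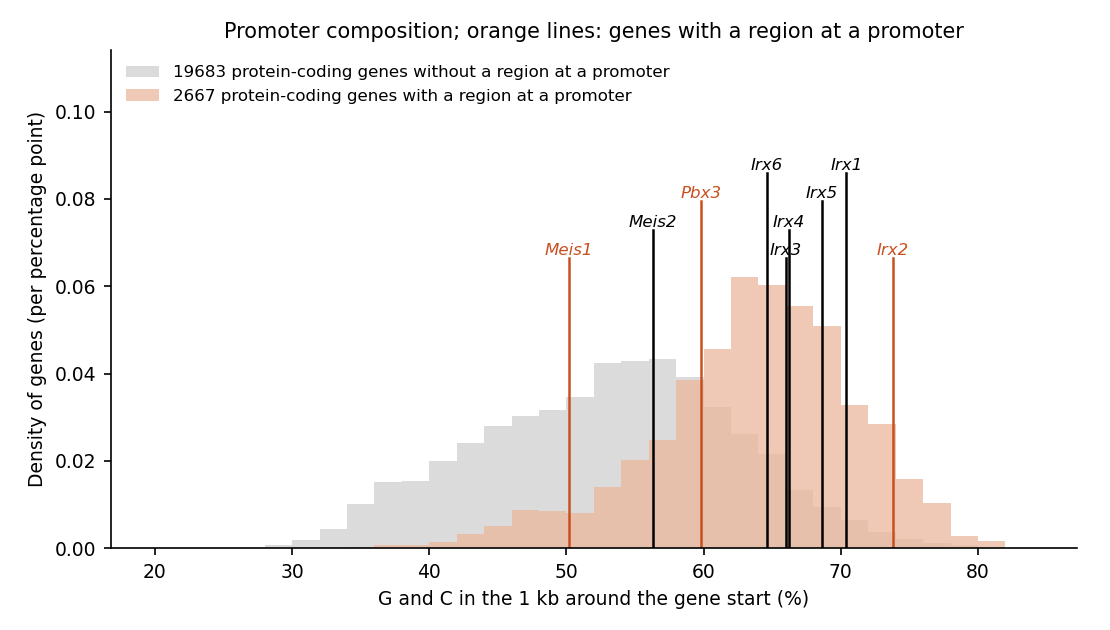
Distribution of G and C content in percent in the 1 kb around the gene start, as density per percentage point, for 2667 protein-coding genes with and 19683 without a BRG1 region at a promoter, with lines for the TALE genes (orange where a region was listed at a promoter). Irx1, Irx3, Irx4, Irx5 and Irx6 lie between 64.6 and 70.4%, where the density is higher for genes with a region, and had none, while Meis1 at 50.2% had one. Each density is scaled to its own group. Among genes with CpG-rich starts, 31.8% had a region at a promoter, so that most had none.

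The regions themselves varied in composition, as did the classes they belong to. Over all 3473 regions the median was 72.4% G and C, with 74.1% at promoters (quartiles 70.0 and 77.1) and 54.5% away from promoters (quartiles 49.4 and 64.6), and the median CpG ratio was 0.903 at promoters and 0.280 away from them. The Irx2 promoter region, at 74.7% G and C and a ratio of 0.898 with 81 CpGs, was close to the median of promoter regions, and sequence 5 kb away on each side had 45.2%. The Pbx3 region had 70.3% and 0.761 with 28 CpGs, in surroundings of 35.5%. The Meis1 region had 56.3% and 0.722 with 121 CpGs over its 2120 bp. Over their own widths, 96.7% of regions at promoters had more G and C than the Meis1 region, and 87.6% had a higher CpG ratio, but most of these regions were far narrower. In windows of 300 bp around the midpoint, Meis1 had 64.3% G and C against a median of 73.3% at promoters, and a CpG ratio of 0.934 against a median of 0.904, so that at equal length its CpG ratio was not below the median.

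Away from promoters, the Irx5 region had 67.1% G and C and a CpG ratio of 1.14 with 43 CpGs in 340 bp. Only 1.54% of regions away from promoters had a higher ratio. It was also above the upper quartile of 0.991 among regions at promoters, although the nearest annotated TSS was 103 kb away. The Meis2 regions followed, at 53.4% and 0.583 past the 3′ end and 61.7% and 0.677 upstream. These ratios were exceeded by 29.1 and 25.5% of regions away from promoters. The other Iroquois regions were CpG-poor. The Irx3 region had 50.5% and a ratio of 0.230, the region between Irx3 and Irx5 56.0% and 0.194, and the IrxA regions 61.2% and 0.281 (80 bp) and 48.0% and 0.170 (1080 bp). The last 2 held 2 and 10 CpGs. Every region of the 10 was unique in mm9 by words of 75 bp (100%), except the Irx3 region at 99.4%.

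**Figure D5:**
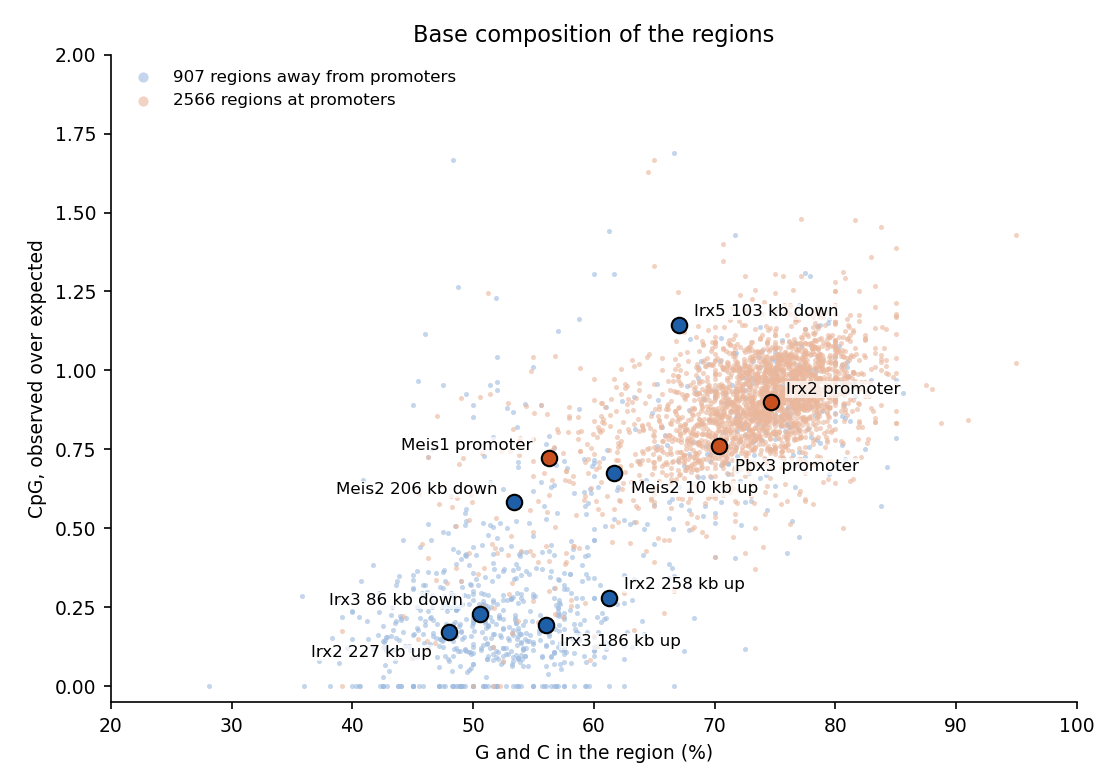
Ratio of observed to expected CpG against G and C content in percent for each distinct BRG1 region, with 2566 regions at promoters in orange, 907 away from promoters in blue, and the regions of the TALE genes as large labelled points. Values are over the whole width of each region. The Irx5 region has a ratio of 1.14 and the Meis1 promoter region, the widest of the set, 56.3% G and C.

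Words of the TALE proteins themselves were searched on both strands in a window of 300 bp around the midpoint of each region. In regions narrower than this the window takes in neighbouring sequence, which concerns many regions away from promoters, since their median width was 200 bp. The MEIS word TGACAG was present in 16.8% of all windows and 18.9% of windows 5 kb away. Its share was 35.8% away from promoters and 10.1% at promoters. The word was in 2 of the 7 regions within 100 kb of the genes. These were the Pbx3 promoter region, 29 bp from its midpoint, and the region past Meis2, away from promoters, 19 bp from its midpoint. Over the whole width of the regions 4 of 7 held it, with the Meis1 region (192 bp from its midpoint) and the Irx3 region (242 bp) added. The region past Meis2, 1380 bp wide, held 3 copies. The longer word TGACAGC, which contains TGACAG, was present in 5.82% of all windows and in the Pbx3 window, and over whole regions also at Meis1 and past Meis2. Wide regions have more room for a 6-letter word, so that only the windows of equal length can be set beside the background.

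The PBX word TGATTGAT and the PBX and HOX word TGATTTAT were in 0.662 and 0.346% of all windows, in 2.32 and 1.10% of windows away from promoters, and in 1.22 and 1.64% of windows 5 kb away. The Irx5 region, away from promoters, held both, TGATTTAT at 36 bp from its midpoint and TGATTGAT at 158 bp, just outside the central window. The Iroquois word ACATGT, which reads the same on both strands, was in 4.74% of windows away from promoters and in 9.70% of the windows 5 kb from these regions. None of the 7 regions held it. It was present in the region between Irx3 and Irx5, 40 bp from the midpoint, and in the 1080 bp region upstream of Irx2 outside the central window.

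The GATA word AGATAA was searched because GATA4 is a transcription factor of cardiac precursors. It was in 8.72% of all windows, 25.4% of those away from promoters, 2.84% of those at promoters and 15.4% of windows 5 kb away. Of the 7 regions, 2 held it. These were the Irx3 region (78 bp from its midpoint) and the Irx5 region (51 bp), both away from promoters. The 80 bp region between Irx1 and Irx2 held it as well, 1 bp from its midpoint, and the region past Meis2 held 2 copies outside the central window. The T-box word AGGTGTGA was in 0.720% of all windows and 1.47% of windows 5 kb away. Away from promoters it was in 1.87% of windows, against 1.27% of the windows 5 kb from these regions. At promoters it was in 0.312%. None of the 10 regions held it. No searched word was found in the Irx2 promoter region or in the region upstream of Meis2. These are matches of letters and not sites of binding, which were not measured here for the factors.

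Further TALE genes were taken as a list of 8 for context (Meis3, Pbx2, Pbx4, Pknox1, Pknox2, Tgif1, Tgif2 and Mkx). Of these, 1 had a region at a promoter and 4 a region within 100 kb, with 5 distinct regions in all. Over all protein-coding genes, the shares were 11.9% at a promoter and 40.3% within 100 kb. Of the 17 TALE genes given here, 4 had a promoter region. Among the 8 further genes, the one with a promoter region was Pknox2, which encodes a relative of MEIS proteins. Its region of 880 bp was on 2 rows, with the midpoint 0.914 kb inside the gene. A second region of 160 bp lay 170 kb downstream of the Pknox2 start, inside the gene. Meis3 had a region of 160 bp at 2.94 kb upstream of its start. The regions within 100 kb of Pknox1 and Tgif2 lay at promoters of other genes, namely U2af1 for Pknox1, and 1110008F13Rik and 5430405H02Rik for Tgif2. Pbx2, Pbx4, Tgif1 and Mkx had no region within 100 kb.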

How the data were processed

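BRG1 ChIPseq was measured in 12 libraries, and the list of regions for wild-type CPs, behind which stand 2 ChIP libraries and 1 input library, was used. The authors used fastq-mcf to trim single-end reads of 75 bp and Bowtie to align them to mm9, kept reads with a mapping quality of at least 30 and called bins enriched over input. Each row of the deposited list is a chromosome with 2 positions in bp on mm9, with no count, height or P-value. The tool versions and the way in which libraries were combined are not given in the sources used here. The list was taken as labelled, for CPs, although its number of distinct regions coincides with a number of sites that the text of the study gives for CMs, and its number of rows with the one given for CPs.

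Starts were read as counted from 0 and are printed counted from 1. The 4791 rows name 3473 distinct regions on a grid of 20 bp, and each was counted once. Genes and TSSs came from GENCODE release M1 on mm9. RefSeq start sites (GRCm38.p6 table) were placed on mm9 by exact match of their sequence, for Irx2, Irx3, Irx4, Meis1 and Meis2. Words, G and C content and CpG ratio were read from the mm9 sequence, in 300 bp around the midpoint (beyond the edges of narrower regions) or in the whole region. Python 3.11.15, numpy 2.4.6, pandas 2.3.3, samtools 1.23.1, pysam 0.24.0, matplotlib 3.10.9 and numba 0.67.0 were used, and counting was tested on simulated lists.

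The genes named are the 9 genes, 8 further TALE genes, and genes that share or neighbour their regions. An item of the longer list is not reported here. The members and lists were chosen with earlier results of these data known. No test was made, because the list is 1 sample without values per library, and counts are set beside the share over all genes or regions. Alternatives were other promoter definitions, windows of 50 and 200 kb, counting of each row, merging across gaps of up to 1500 bp, other words and whole regions.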

Additional observations from a re-analysis of the deposited data

How the results depend on the processing

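Of 25 alternatives tried for 8 results, 19 stayed within a factor of 1.5 of the value reported (within 10% for the G and C content), and 3 of the 25 were chosen after seeing the data (RefSeq starts, whole clusters, width away from promoters). This tally is a weak measure of stability. With counts this small, the factor admits 2 in place of 3 and 5 or 10 in place of 7. The count of genes with a promoter region and the count of promoter regions rest on the same 3 regions. Irx2, Meis1 and Pbx3 were the genes with a promoter region under every promoter definition from GENCODE, namely 500 bp, 1 kb or 2 kb either side, 1 kb upstream only, and TSSs of protein-coding transcripts only. With RefSeq starts, which 5 of the 9 genes have in the table, Irx2 and Meis1 had one.

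Counting each row gave 12 regions within 100 kb in place of 7, 7 at promoters in place of 3, and a median width of 1020 bp in place of 560 bp, since wider regions were on more rows. For the MEIS word TGACAG, found in 2 of 7 windows, the whole region gave 4, the longer word TGACAGC gave 1 and the PBX word TGATTGAT gave 0. Windows of 50 and 200 kb gave 5 and 8 regions. Requiring the midpoint inside the gene left 2 genes with a region in the body.

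No paired analysis was possible because single libraries have no values of their own in a list of positions, and leaving out a replicate was not possible either. Every absence reported is limited by the unknown depth.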
